A study of Homo sapiens with 12 samples.

Results

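The genes described here are 8 members of the zinc response, namely the metallothioneins MT1E, MT1F, MT1G, MT1X, MT2A and MT3, the metal-sensing transcription factor MTF1 and the zinc exporter SLC30A1. They were chosen by name, with earlier results of these data known, from the 25718 genes in the count files. Where a gene had several RefSeq transcripts, the transcript with the highest mean count was used. Counts were measured by RNA sequencing in 12 samples of H9, an established human embryonic stem cell line, after 14 days of neural induction with midbrain patterning by a WNT pathway activator and SHH. The cells had been transduced as undifferentiated stem cells, at a multiplicity of infection of 50, with a lentiviral vector that carries either miR10a-GFP or miR10b-GFP under Tet control. Each vector had 3 doxy samples, which received doxycycline on days 11 to 14 of differentiation, and 3 NOdoxy samples of the same transduced cells without it. Doxycycline was given only together with an inducible microRNA, so an effect of the drug itself and of the microRNA cannot be told apart. The cultures were transduced populations rather than clones, they had been expanded on mouse embryonic fibroblasts, and untransduced cells can remain in them. No metal treatment is described for any group.

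Metallothioneins are small, cysteine-rich proteins that bind zinc, copper and cadmium and buffer free zinc in the cell. MTF1 senses free zinc through its zinc fingers and then activates metallothionein genes and SLC30A1, which encodes the plasma membrane transporter ZnT1, from short metal response elements in their promoters. In the brain, MT1 and MT2 proteins are best known from astrocytes, and MT3 is the form enriched in the nervous system.

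In GRCh37 the 6 metallothionein genes lie together on chromosome 16, from MT3 at chr16:56622986-56625000 through MT2A (chr16:56642496-56643409), MT1E (chr16:56659387-56661024), MT1F (chr16:56691643-56694610) and MT1G (chr16:56700642-56701977) to MT1X (chr16:56716382-56718108). MT1G is on the minus strand and the other metallothionein genes are on the plus strand. MTF1 (chr1:38275246-38325264) and SLC30A1 (chr1:211744910-211752503) are both on the minus strand of chromosome 1.

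The promoters of the 3 members that fell with miR-10b induction are shown because MTF1 acts through a short element that can be searched for in them. The core of the metal response element was searched as TGCACNC and TGCGCNC on both strands, and capitals mark the matches. Sequences run from 250 bases before to 50 bases after the start site, are written 5′ to 3′ on the strand of the gene, and come from RefSeq on GRCh38.p14, where 4 of the 8 members had an entry (MT1X, MT2A, MTF1 and SLC30A1). The windows are chr16:56608334-56608633 on the plus strand for MT2A, chr16:56682220-56682519 on the plus strand for MT1X and chr1:211579112-211579411 on the minus strand for SLC30A1.
MT2A: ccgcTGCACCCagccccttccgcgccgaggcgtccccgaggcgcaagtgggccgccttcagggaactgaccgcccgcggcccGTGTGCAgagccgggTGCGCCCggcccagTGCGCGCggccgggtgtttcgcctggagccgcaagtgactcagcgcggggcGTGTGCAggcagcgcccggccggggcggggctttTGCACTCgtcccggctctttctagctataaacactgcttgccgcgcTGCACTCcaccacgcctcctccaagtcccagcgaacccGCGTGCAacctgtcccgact
MT1X: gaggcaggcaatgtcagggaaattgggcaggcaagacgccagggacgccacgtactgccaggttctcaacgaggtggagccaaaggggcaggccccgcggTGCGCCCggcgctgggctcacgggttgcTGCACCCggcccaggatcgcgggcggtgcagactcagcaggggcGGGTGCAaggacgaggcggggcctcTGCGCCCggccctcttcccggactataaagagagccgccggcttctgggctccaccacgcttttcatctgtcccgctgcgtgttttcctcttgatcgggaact
SLC30A1: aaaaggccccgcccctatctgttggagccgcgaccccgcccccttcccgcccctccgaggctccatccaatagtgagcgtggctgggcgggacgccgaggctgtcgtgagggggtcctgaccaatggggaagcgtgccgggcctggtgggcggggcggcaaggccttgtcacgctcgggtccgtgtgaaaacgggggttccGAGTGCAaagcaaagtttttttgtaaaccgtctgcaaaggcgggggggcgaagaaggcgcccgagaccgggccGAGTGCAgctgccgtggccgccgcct
The MT2A promoter held 8 matches, 5 on the strand of the gene and 3 on the other. Of 35116 promoters of this length, 0.0199% held at least as many. The MT1X promoter held 4 matches, 3 on its own strand and 1 on the other, and 0.601% of promoters held at least 4. The SLC30A1 promoter held 2, both on the opposite strand, and 8.60% of promoters held at least 2. No match was found in the MTF1 window, whereas 29.6% of all promoters had at least 1. A match to these letters is a description of the sequence and was not tested as a binding site.

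**Figure D1:**
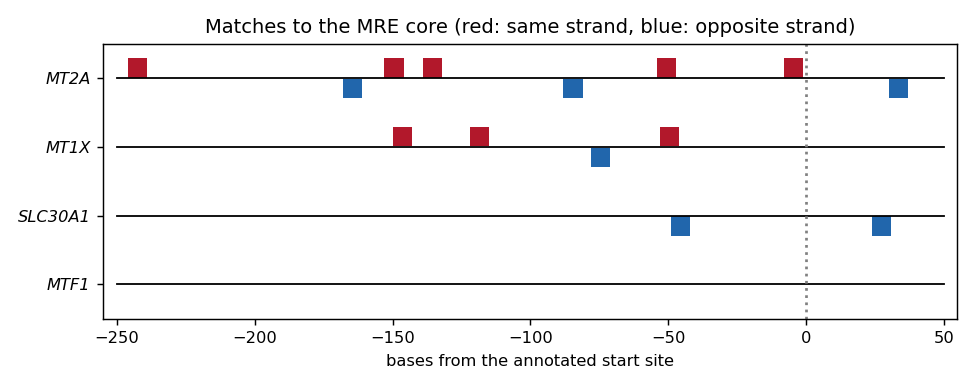
Positions of matches to the metal response element core in 4 promoters, with the distance in bases from the annotated start site on the x axis and 1 line per gene. Red blocks are matches on the strand of the gene and blue blocks are matches on the opposite strand. MT2A has 8, MT1X 4, SLC30A1 2 and MTF1 none.

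The overexpressed microRNA was compared with the members at the level of sequence. The mature form of miR-10a is shown with its seed, bases 2 to 8, in capitals (RefSeq, GRCh38.p14, chr17:48579904-48579926, minus strand). hsa-miR-10b-5p is the other overexpressed form.
hsa-miR-10a-5p: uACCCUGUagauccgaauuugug
In the longest 3′ untranslated region that GENCODE 44 gives for each member, no 8mer, 7mer or 6mer match to this seed was found in MT1E, MT1F, MT1G, MT1X, MT2A, MT3 or SLC30A1. The 5562-base region of MTF1 held 5 matches, 1 of the 7mer-m8 kind, 1 of the 7mer-A1 kind and 3 6mers.

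The samples held 10545487 to 14165426 counts, so that 3 counts, taken as the detection floor, corresponded to 0.212 to 0.284 CPM, in which each gene's count is normalised to all counts in its library. Every doxy sample had a lower total than every NOdoxy sample of its vector. Induction was visible in the precursor genes: MIR10A rose from 0.641–1.37 CPM to 711–731 CPM with the miR10a vector, and MIR10B from 2.89–4.45 CPM to 2541–2662 CPM with the miR10b vector. All 7 neural progenitor markers examined (SOX1, SOX2, SOX3, NES, VIM, FABP7 and HES5) were measured, with a summed level of 9950–11587 CPM. Of the 7 listed ventral midbrain floor plate genes, SHH had 555–636 CPM and EN1 87.2–111 CPM. The others were far lower, with CORIN at 5.22–23.0, FOXA2 at 5.98–9.61, LMX1A at 2.49–8.08, OTX2 at 0.190–0.804 and LMX1B at 0 CPM. These lower genes all have several transcripts, and the part of the counting in their values was not tested. Of 11451 genes with a mean above 10 counts, 15.3% passed an adjusted p of 0.05 with miR-10b and 1.21% with miR-10a (edgeR). The replicate of the miR10b doxy group numbered 2 differed from its fellow replicates by more than other replicate pairs differed from each other (chi-square per degree of freedom 3.17–4.11 against 1.22–1.93), and the values of the tested members and named list genes that were called with miR-10b are therefore also given without it.

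Only 4 of the 8 members, MT1X, MT2A, MTF1 and SLC30A1, had enough counts to be tested. MT1E, a metal-inducible isoform of the MT1 group, had 0 to 3 counts per sample and 16 in all, with a count in 10 of the 12 samples. MT3 had 0 to 2 counts per sample and 6 in all, from 5 samples. MT1F and MT1G had no count in any sample, on either of their 2 RefSeq transcripts. All 4 genes were thus at or under the floor of 3 counts in every sample, and no fold change is given for them. MT1F and MT1G have 2 transcripts each, and the part of the counting in their values was not tested. The 9509 genes with several transcripts received 7.16% of all counts, and the 16209 genes with 1 transcript received 92.8%. No count in any sample was found for 23.1% and 15.8% of these genes, respectively. GAPDH, with 4 transcripts, had a mean of 50.9 counts summed over them, and ACTB, with 1 transcript, had 107120. MT1E and MT3 are listed with 1 transcript each, so that overlap between transcripts of the same gene does not enter there. The other metallothionein genes and pseudogenes, 10 listed in all, likewise had none that passed the filter.

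**Figure D2:**
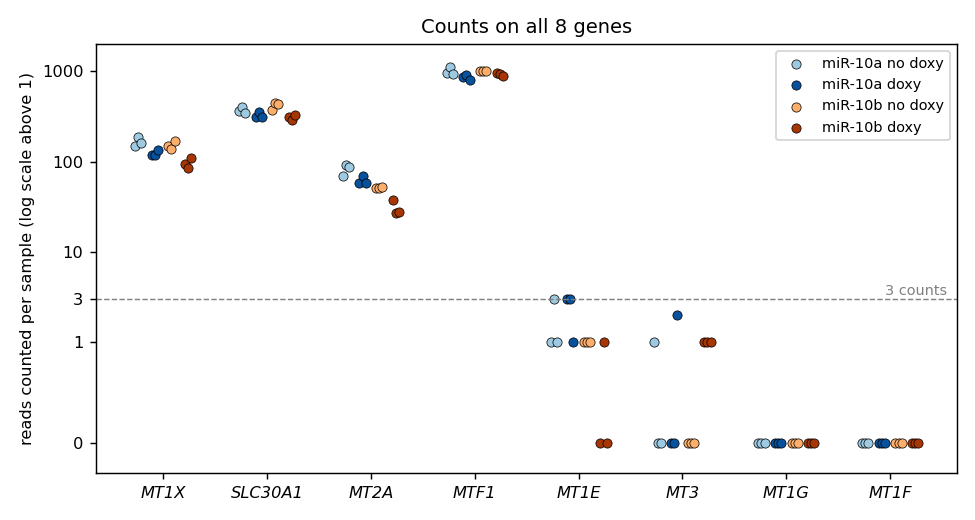
Reads counted per sample on each of the 8 genes, 1 point per sample, with a log y axis above 1 count and the 4 groups in colour. MT1X, SLC30A1, MT2A and MTF1 lie between 27 and 1106 counts, whereas MT1E and MT3 lie at 0 to 3 counts and MT1F and MT1G at 0 in all 12 samples.

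Levels of different genes were compared as CPM per kilobase of the counted transcript. On this scale MT1X had the highest mean, 26.9 (range over 12 samples 18.1–32.9), followed by SLC30A1 with 14.2 (12.2–16.2), MT2A with 11.0 (5.53–16.6) and MTF1 with 9.62 (9.21–10.1). MT1X lay above the other members throughout, since its lowest sample was above the highest sample of each. The range of MT2A over all 12 samples overlapped those of both SLC30A1 and MTF1, but its place against MTF1 depended on the group. In the miR10a samples MT2A had 12.5–16.6, above MTF1 with 9.31–9.91. In the miR10b NOdoxy samples both overlapped (9.02–9.67 and 9.35–9.92). In the miR10b doxy samples MT2A had 5.53–7.63, below MTF1 with 9.21–10.1. The place of SLC30A1 depends on its length: the files give 2018 bases, and with the 5893 bases of its GENCODE transcript its mean would be 4.87 (4.19–5.56), the lowest of the 4 tested genes. This alternative was chosen after seeing the data, and MT1X, MT2A and MTF1 had nearly the same means with both lengths. MT1E (mean 0.214) and MT3 (0.0749) were far lower.

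The counts of the metallothioneins have to be read with their sequence similarity in mind. The GENCODE 44 transcript of each member was divided into windows of 50 bases. A window counted as shared when it occurred elsewhere in the genome or in a transcript with another gene name. The positions of those transcripts were not compared with the member's locus, so some may overlap it. Of the windows of MT1X, 53.2% were shared exactly and 73.8% with up to 2 mismatches. With mismatches allowed, ENSG00000259827, MT1XP1, MT2P1 and MT2A were the genes that shared the most windows. For MT2A the shares were 11.1% and 55.1%. MT1E had 1.77% and 47.0%, MT1G 21.3% and 40.6%, and MT1F 6.12% and 19.7%. MT3 had no shared window, SLC30A1 0.154% and MTF1 3.21%, in each case with mismatches allowed. Reads of MT1X, MT2A and the other MT1 genes can therefore have been dropped or assigned to a relative, and their values are uncertain to that extent, whereas those of SLC30A1 and MTF1 are nearly free of this limit.

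**Figure D3:**
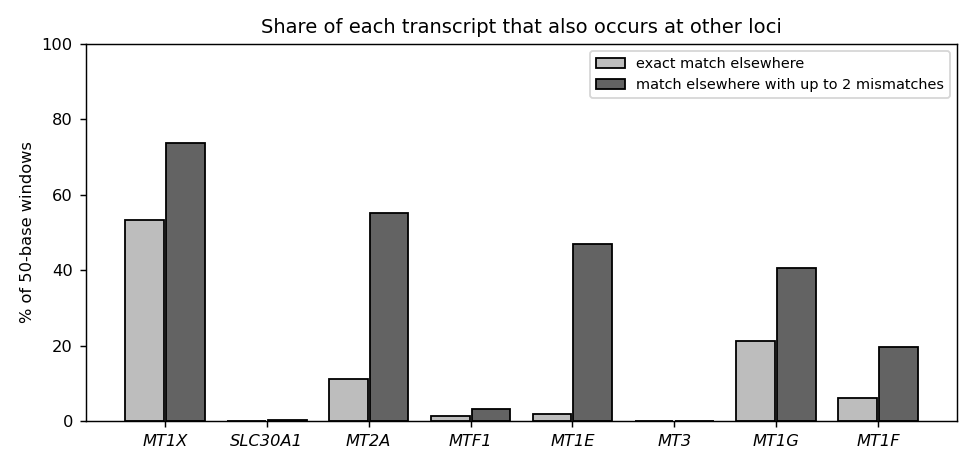
Share (%) of the 50-base windows of each transcript that also occurs elsewhere in the genome or in a transcript with another gene name. Light bars are exact matches and dark bars allow up to 2 mismatches. MT1X has the largest shares, 53.2% and 73.8%, and MT3 has none.

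With miR-10b induction 3 of the 4 tested members fell and none rose, where 7.15% of all 11451 tested genes fell and 8.18% rose. The members were chosen with earlier results of these data known, so this count is no test against those shares. MT1X and MT2A also share read windows, so their calls are not fully separate. These were MT1X, MT2A and SLC30A1, the metallothioneins and exporter that bind or remove zinc, whereas MTF1, the regulator, had nearly the same level with and without doxycycline. The higher and lower calls over all genes depended on scaling (937 higher and 819 lower with total counts, 766 and 963 with TMM factors), but the same 3 members were lower under both. The median log2 fold change of all tested genes was 0.02.

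MT1X, the most abundant metallothionein per length, had 7.82, 7.29 and 9.06 CPM in the 3 miR10b doxy samples. The miR10b NOdoxy samples had 11.7, 10.2 and 12.7 CPM. All 3 doxy samples were below all 3 controls, a separation in this direction seen for 12.3% of all tested genes. The means were 8.06 ± 0.908 and 11.5 ± 1.24 CPM (SD, n = 3 each), and MT1X fell by 30.0%, with a log2 fold change of −0.51 (SE 0.12, adjusted p = 0.0021, edgeR). Leaving out the doxy replicate that stood apart gave −0.45 (adjusted p = 0.013).

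MT2A, the isoform that is widely expressed in human cells, had lower counts, between 27 and 92 per sample. It had 3.20, 2.32 and 2.33 CPM in the miR10b doxy samples. The NOdoxy samples of this vector had 4.05, 3.78 and 3.91 CPM. The groups again did not overlap, with means of 2.61 ± 0.505 and 3.91 ± 0.137 CPM (SD, n = 3 each). MT2A fell by 33.0%, with a log2 fold change of −0.58 (SE 0.18, adjusted p = 0.026, edgeR). This call depended on single samples: without doxy replicate 2 the value was −0.50 (adjusted p = 0.11), and it also missed the threshold without doxy replicate 3 (adjusted p = 0.095), NOdoxy replicate 1 (0.068) or NOdoxy replicate 3 (0.065). DESeq2 gave −0.60 with an unadjusted p of 0.010, and no adjusted p because its filter on low means removed the gene.

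SLC30A1, the exporter that lowers cytosolic zinc, had 26.2, 24.7 and 27.3 CPM in the miR10b doxy samples. Without doxycycline the level was 29.2, 32.7 and 32.8 CPM. Every doxy sample was below every control, with means of 26.0 ± 1.29 and 31.6 ± 2.01 CPM (SD, n = 3 each). SLC30A1 fell by 17.5%, with a log2 fold change of −0.28 (SE 0.07, adjusted p = 0.0041, edgeR), and without doxy replicate 2 it was −0.24 (adjusted p = 0.023). The sizes of change of different members were not tested against each other.

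MTF1, which activates the other tested members when zinc is high, had 80.6, 79.4 and 73.4 CPM in the miR10b doxy samples. The controls had 79.1, 74.5 and 75.8 CPM. The groups overlapped, with means of 77.8 ± 3.84 and 76.5 ± 2.37 CPM (SD, n = 3 each), and the log2 fold change of 0.02 had a 95% interval of −0.07 to 0.12 (adjusted p = 0.79, edgeR). Without doxy replicate 2 it was 0.01 (adjusted p = 0.94). MTF1 was also the only member with a seed match. The level of its transcript says nothing of the activity of the protein, which responds to zinc directly.

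**Figure D4:**
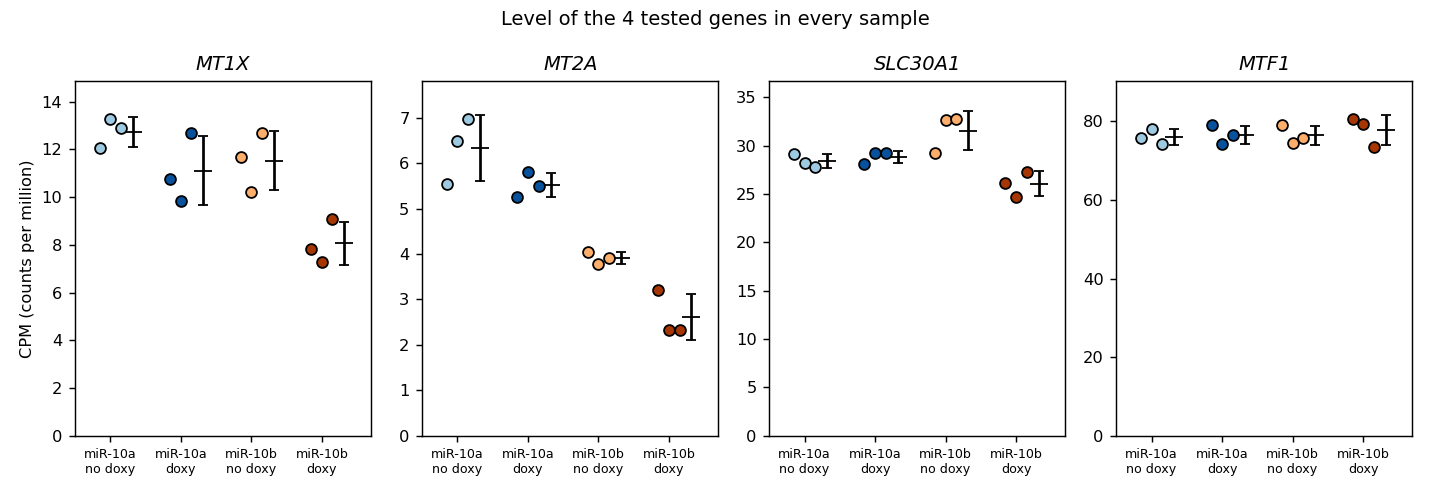
CPM of MT1X, MT2A, SLC30A1 and MTF1 in every sample by group, each point 1 sample, with the mean ± SD (n = 3) beside the points. The miR-10b doxy points lie below all miR-10b controls for MT1X, MT2A and SLC30A1, and the MTF1 groups overlap.

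With miR-10a induction none of the 4 tested members passed the threshold, where 1.21% of all tested genes did (0.742% lower and 0.472% higher). For all tested genes, the doxy samples were all below the controls in 7.75% with this vector, which held for none of these members. MT1X had 10.8, 9.85 and 12.7 CPM in the miR10a doxy samples and 12.1, 13.3 and 12.9 CPM in the controls. The highest doxy sample lay among the controls, so the groups overlapped, and the log2 fold change was −0.21 (SE 0.11, 95% interval −0.42 to 0.01, adjusted p = 0.51, edgeR). MT2A had 5.25, 5.80 and 5.50 CPM with doxycycline and 5.55, 6.49 and 6.97 CPM without, and 1 control lay among the doxy samples. Its log2 fold change was −0.20 (SE 0.14, 95% interval −0.48 to 0.08, adjusted p = 0.65).

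SLC30A1 had 28.1, 29.2 and 29.2 CPM in the miR10a doxy samples against 29.2, 28.2 and 27.8 CPM in the controls. The samples were interleaved, with a log2 fold change of 0.02 (95% interval −0.11 to 0.16, adjusted p = 0.95). MTF1 had 79.0, 74.3 and 76.4 CPM with doxycycline and 75.8, 78.1 and 74.2 CPM without. These groups overlapped too, with a log2 fold change of 0.01 (95% interval −0.09 to 0.10, adjusted p = 0.98).

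The difference between the effects of both vectors was tested itself and was not established for any member, where 1.96% of all tested genes passed (1.38% with the lower and 0.576% with the higher effect under miR-10b). The difference, miR-10b minus miR-10a, was −0.31 for MT1X (SE 0.16, adjusted p = 0.43), −0.38 for MT2A (SE 0.23, adjusted p = 0.51) and 0.02 for MTF1 (adjusted p = 0.95) on the log2 scale. It was −0.30 for SLC30A1 (SE 0.10), with an unadjusted p of 0.0040 and an adjusted p of 0.11 (edgeR). A call with miR-10b and none with miR-10a is therefore not a shown difference between the vectors for any of these genes.

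When the effect was averaged over both vectors, which uses the same samples again, MT1X was lower with a log2 value of −0.36 (SE 0.08, adjusted p = 0.0018) and MT2A with −0.39 (SE 0.12, adjusted p = 0.020), where 6.22% of tested genes were lower and 7.67% higher. SLC30A1 had −0.13 (SE 0.05, adjusted p = 0.080) and MTF1 0.02 (adjusted p = 0.81). The MT2A call was lost without miR10a NOdoxy replicate 3, miR10b doxy replicate 2 or miR10b doxy replicate 3 (adjusted p = 0.054, 0.054 and 0.053). A two-sided exact permutation test of log2(CPM + 1), with labels exchanged within each vector (400 arrangements, smallest possible p 0.005), gave p = 0.01 for MT1X, 0.01 for MT2A, 0.085 for SLC30A1 and 0.565 for MTF1. Within the miR10b vector alone the same exact test gave 0.1 for MT1X, MT2A and SLC30A1, which is the smallest value that 3 against 3 samples allow.

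**Figure D5:**
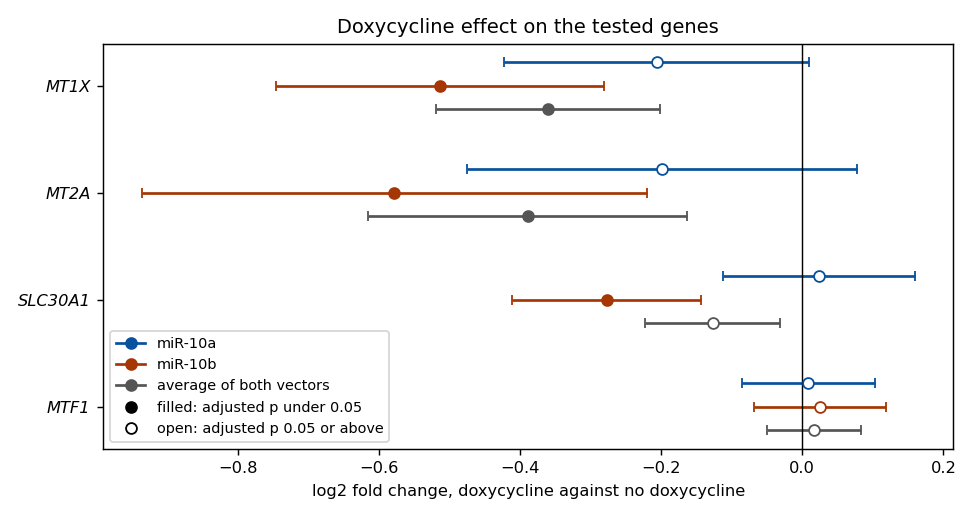
Log2 fold change of doxy against NOdoxy (x axis) for the 4 tested members (y axis), with bars for the 95% interval from edgeR, for miR-10a, miR-10b and their average. Filled points have an adjusted p under 0.05: MT1X, MT2A and SLC30A1 with miR-10b, and MT1X and MT2A in the average.

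Of the tested members, MT2A also differed between the transduced cultures that received no doxycycline. MT2A was lower in every miR10b NOdoxy sample (3.78–4.05 CPM) than in every miR10a NOdoxy sample (5.55–6.97 CPM), a separation in this direction seen for 15.9% of tested genes. The log2 difference was −0.70 (SE 0.15, adjusted p = 6.4e-04, edgeR), and 6.72% of tested genes were called lower and 7.41% higher. MT1X overlapped between these groups (−0.15, adjusted p = 0.43), as did MTF1 (0.01, adjusted p = 0.95). SLC30A1 had 31.6 ± 2.01 CPM in the uninduced miR10b samples and 28.4 ± 0.709 CPM in the uninduced miR10a samples (SD, n = 3 each). Its log2 difference of 0.15 did not pass the threshold (SE 0.07, adjusted p = 0.13, edgeR). Vector and culture cannot be told apart in this comparison. Cell type markers differed in it too. Of the tested markers, 3 of 5 floor plate and 3 of 5 fibroblast or mesenchyme markers were higher in the miR10b samples, with none lower. Of 7 neural progenitor markers 3 were higher and 2 lower, and 2 of 2 pluripotency markers were lower. None of 3 neuron and 2 endothelium markers was called. The part of these markers in the MT2A difference was not tested.

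The share of MT2A in the counts of both metallothioneins was compared as a description, with no test. MT2A made up 33.3 ± 3.45% of the counts on MT1X and MT2A in the miR10a doxy samples and 33.1 ± 1.80% in the miR10a controls (SD, n = 3 each). In the miR10b samples its share was 24.5 ± 4.30% with doxycycline and 25.4 ± 1.75% without. The shares with and without doxycycline overlapped within each vector, and every miR10b sample was below every miR10a sample.

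In bulk RNA, fewer cells that express a gene and less RNA per cell cannot be told apart. Several cell type markers moved in the same comparison as the metallothioneins. The numbers of called markers are to be read beside all tested genes. Of these, 15.3% passed with miR-10b (7.15% lower) and 1.21% with miR-10a. The summed level of 6 fibroblast or mesenchyme markers was 214–229 CPM in the miR10b doxy samples and 265–288 CPM in their controls, with COL1A1 (log2 −0.60) and COL3A1 (−0.21) past the threshold among the 5 tested. In the miR10a samples the same sum was 106–119 CPM with and 107–109 CPM without doxycycline. The summed level of 5 pluripotency markers was 996–1009 CPM in the miR10b doxy samples against 1229–1258 CPM in the controls and 1526–1571 against 1643–1721 CPM with miR-10a. This fall was that of 1 gene, LIN28A (log2 −0.34 with miR-10b, adjusted p = 4.8e-11, and −0.14 with miR-10a, adjusted p = 0.0032), while DPPA4, the other tested marker, had −0.03 (adjusted p = 0.70) and 0.01 (adjusted p = 0.97). NANOG was at 0 in all samples and POU5F1 reached at most 0.160 CPM. Both have several transcripts and may be limited by the counting, which was not tested. Of the 7 neural progenitor markers, 3 fell with miR-10b, SOX3 (−0.40), NES (−0.14) and HES5 (−0.16), and none passed with miR-10a. Of 5 tested floor plate genes 1 was called, CORIN, which fell by 0.77 on the log2 scale with miR-10b (adjusted p = 6.3e-08). All 7 markers called with miR-10b stayed past the threshold without doxy replicate 2. Astrocyte markers summed to 0.241–1.16 CPM, with AQP4 at 0 and none of the 5 tested, but 4 of the 5 have several transcripts, so the low sum is no measure of their expression. The part of these markers in the result was not tested.

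The counts of other zinc handling genes are to be read against the 15.3% of all tested genes that passed with miR-10b and the 1.21% with miR-10a. The listed exporters and importers that were not tested all have several transcripts. The part of the counting in their low values was not tested. Of 9 other zinc exporters of the SLC30 family, 5 were tested and none passed with either vector, with a median log2 fold change of −0.04 with miR-10b and −0.01 with miR-10a. SLC30A9, the exporter-family gene with the highest level, had 297 ± 14.4 CPM with and 305 ± 2.30 CPM without doxycycline in the miR10b samples (log2 −0.04, adjusted p = 0.56). Of 14 zinc importers of the SLC39 family, 5 were tested and 1 was called, SLC39A8, which encodes the zinc and manganese importer ZIP8. It rose from 6.24 ± 0.522 to 9.64 ± 0.248 CPM with miR-10b (SD, n = 3 each), with a log2 fold change of 0.63 (SE 0.13, adjusted p = 5.9e-04, edgeR), and 0.64 (adjusted p = 0.0011) without doxy replicate 2. With miR-10a it had 4.48 ± 0.585 CPM with doxycycline and 5.22 ± 1.08 CPM without (log2 −0.23, adjusted p = 0.65). SLC39A8 has 4 transcripts, and its value with the counts summed over them stayed past the threshold. Summing cannot restore reads shared by transcripts if these were not counted, so the part of the counting was not tested.

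Genes of other pathways that act on metallothionein promoters or accompany metal stress were described from lists. The listed copper, iron, glucocorticoid-responsive and NRF2 genes that were not tested, TFRC among them, all have several transcripts. Their low values may be limited by the counting, which was not tested, so these lists were covered only in part. None of 9 tested copper genes and none of 4 tested iron genes passed with either vector, and the most abundant of them, SOD1 (log2 −0.07 with miR-10b, adjusted p = 0.23) and FTL (−0.01, adjusted p = 0.86), were close to their controls. None of 6 tested glucocorticoid-responsive genes passed, PER1 having a log2 fold change of 0.06 (adjusted p = 0.41) with miR-10b. Of 8 tested targets of NRF2, the regulator of the response to oxidants, 2 fell with each vector, where 0.742% of all tested genes fell with miR-10a and 7.15% with miR-10b. GCLM, a subunit of the enzyme that starts glutathione synthesis, changed by −0.51 on the log2 scale with miR-10a (adjusted p = 7.6e-04) and by −0.73 with miR-10b (adjusted p = 3.3e-07). SLC7A11, the cystine importer that supplies it, changed by −0.25 (adjusted p = 0.0017) and −0.39 (adjusted p = 6.5e-07). Without miR10b doxy replicate 2 the miR-10b values were −0.67 for GCLM and −0.37 for SLC7A11, both past the threshold. The median over the 8 NRF2 targets was −0.08 for miR-10a and −0.16 for miR-10b, beside 0.01 and 0.02 for all tested genes.

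Of 7 tested heat shock genes 1 was called, a share close to the 15.3% of all tested genes called with miR-10b. This was BAG3, a co-chaperone induced by protein stress, which rose with miR-10b (log2 0.23, SE 0.06, adjusted p = 0.0046, and 0.18, adjusted p = 0.030, without doxy replicate 2). Averaged over both vectors BAG3 had 0.12 (adjusted p = 0.041), a call that was lost with TMM factors (adjusted p = 0.071) and DESeq2 (0.12). The median of the heat shock genes was 0.04 with miR-10b and 0.06 with miR-10a.

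Among the tested genes whose pattern over the 12 samples was most like that of MT1X were PROS1, NEK7, DRAM1 and GART. The mean absolute difference of their centred log2(CPM + 1) values from those of MT1X was 0.0664, 0.0846, 0.0853 and 0.0861 respectively. The median over the other tested genes was 0.237. The other tested members were at 0.183 for SLC30A1, 0.214 for MTF1 and 0.228 for MT2A. The named genes were picked as the nearest of all tested non-members. That they lie nearer to MT1X than the members do was therefore set by this choice and is no result.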

How the data were processed

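The authors sequenced RNA of the 12 samples and deposited raw counts per RefSeq transcript on hg19. The submitters' processing notes name STAR, Subread and featureCounts, without versions. How reads with several matches were treated is not given in the sources used here. Each file held 51799 lines for 48101 transcripts. The 3698 repeated lines were dropped, and per gene the transcript with the highest mean count was kept.

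Counts were fitted with edgeR 4.0.16 (R 4.3.3, glmQLFit and glmQLFTest) as 4 group means, all 12 samples together, and library sizes were total counts. Genes with a mean above 10 counts were tested, and p-values were adjusted (Benjamini-Hochberg, threshold 0.05) over all of them. Exact permutation tests used log2(CPM + 1). The code was tested on simulated data. Alternatives were TMM factors, DESeq2 1.42.0, other count filters, summed transcripts, 1 vector alone, a replicate block and leaving out each sample. Windows were searched with blastn 2.17.0 in GRCh37.

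All 8 members were named. From each list at most 4 called genes were named, or, with none called, the most abundant. The likeness measure named the 5 nearest genes, of which 1 is not reported here. Members and lists were chosen with earlier results of these data known. The labels do not say that replicates were separate cultures, so p-values measure only the spread between these samples, which may be technical.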

Additional observations from a re-analysis of the deposited data

Results flagged for a closer look

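The effect of doxycycline on SLC39A8, the zinc importer ZIP8, differed between the vectors by a test of the difference itself. The log2 difference, miR-10b minus miR-10a, was 0.85 (SE 0.21, adjusted p = 0.018, edgeR), and 1.96% of tested genes passed this test. Over 17 alternatives the difference ranged from 0.70 to 0.98, with adjusted p from 0.0061 to 0.097. It missed the threshold without miR10a doxy replicate 1 (adjusted p = 0.052), miR10a doxy replicate 2 (0.079) or miR10a NOdoxy replicate 3 (0.097).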

How the results depend on the processing

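Of 359 values of the members under alternatives, 341 kept their direction and their side of the threshold, 7 no longer passed, 1 newly passed and 10 turned sign. MT1X with miR-10b passed in all 19 alternatives (−0.61 to −0.44, adjusted p 4.5e-04 to 0.027), as did SLC30A1 (−0.33 to −0.24, adjusted p 0.0020 to 0.031), and MT2A between uninduced cultures passed in all 17 (−0.78 to −0.63). The 7 losses were all of MT2A and are given with its values. SLC30A1 averaged over both vectors passed without miR10b NOdoxy replicate 1 (−0.15, adjusted p = 0.038). The sign changes were all of MTF1, near 0: −0.0018 with DESeq2 for miR-10a, and, leaving out samples, −0.0145 to 0.0309 for miR-10a, −0.0015 to 0.0653 for miR-10b, −0.0101 to 0.0569 for their difference and −0.0173 to 0.0277 between uninduced cultures. Of 275 values of the list genes, 261 held, 12 no longer passed (9 of BAG3, averaged, and 3 of SLC39A8) and 2 turned sign, SLC30A9 (−0.0304 to 0.0020) and FTL (−0.0174 to 0.0524), both averaged and leaving out samples.

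Genes past the threshold with miR-10a numbered 139, and 272 when the miR10a samples were fitted alone (78 to 268 leaving out samples). For the difference between vectors there were 224, 343 with no filter on low counts, and 140 to 340 leaving out samples. The members past the threshold in the average were 2, but 1 with DESeq2, where MT2A had no adjusted p, and 1 to 3 leaving out samples. The cause of these shifts was not tested. With TMM factors the higher and lower calls averaged over both vectors went from 878 and 712 to 665 and 852, and with DESeq2 to 464 and 743. With DESeq2 they were 498 and 808 for miR-10b, 36 and 93 for miR-10a (54 and 85 with edgeR) and 22 and 165 for the difference (66 and 158 with edgeR).

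Same-numbered samples did not deviate together (r −0.0317 to 0.00549 over 6 pairs), and 0 doxy samples correlated best with their own number, so the numbers were not taken as pairs. With the replicate block 116 genes passed with miR-10a, 1638 with miR-10b, 1461 in the average and 218 for the difference, and 3 members passed with miR-10b (MT1X −0.52, MT2A −0.58, SLC30A1 −0.28). No block was fitted for the uninduced cultures. MT1E, MT1F, MT1G and MT3 were at or under the floor of 3 counts, and the parts of depth and counting in this were not tested.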
